A study of Drosophila melanogaster with 12 samples.

Results

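The accessory gland (AG) of the Drosophila male is a paired, sac-like organ that makes most of the seminal fluid. Its epithelium is a single layer of binucleate, postmitotic secretory cells. Nearly all of them are main cells, and the remainder are secondary cells, which sit at the distal tip. The glands lie in a sheath of muscle and empty into the ejaculatory duct. The seminal fluid they release carries small peptides, protease inhibitors, proteases, lipases and lectins that change the behaviour and physiology of the mated female. Sex peptide (SP), the best known of these peptides, makes mated females refuse further males and lay more eggs.

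The RNA of control glands is described here, from 3 of the 12 libraries of the series, which are the libraries whose labels give the genotype without a growth-promoting transgene. The control males had a y,w,hs-flp12 background and carried the transgene Uas-P35 together with Act>CD2>gal4 and Uas-GFP(nls). In these males the heat-shock flippase cuts out the CD2 cassette that separates Gal4 from its actin promoter, and Gal4 then drives a nuclear GFP and the apoptosis inhibitor P35 in scattered cells. Flies were given 20 min at 37°C after eclosion, on the day of eclosion by the series text, whereas the study elsewhere speaks of a day or more after it. Virgin males were kept at 25°C and dissected at 10 days. Each library pooled 80 to 100 glands, with the testis and ejaculatory duct cut away and with glands of no or low GFP discarded. The control is therefore a mosaic that had been heat shocked and expressed P35, not an unmanipulated wild-type gland, and the actin-driven switch is not restricted to the AG. All 3 controls belong to 1 group and were given by the study as independent replicates. Nothing was compared between genotypes. All values are in TPM, an estimate of how many of every 1000000 RNA molecules came from a gene, and the sequencing depth behind them is unknown.

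The markers of the cells of the gland were read beside its label. The marker lists were chosen with earlier results of these data known, so they are no independent check of the label. Acp36DE, Acp62F, SP and the other 9 main cell markers were all above 1 TPM in every library, and the list summed to 112097, 103571 and 110274 TPM in controls 1, 2 and 3. The secondary cell list summed to 8295, 9288 and 9227 TPM, nearly all of it from CG17575 and the C-type lectins lectin-46Ca and lectin-46Cb. In bulk RNA, fewer cells of a type and less RNA per cell cannot be told apart. Contractile genes of the muscle sheath were present at lower levels, with Act57B at 82.6, 93.0 and 105 TPM, and the 16 muscle markers together at 505, 593 and 643 TPM. The 17 fat body markers summed to 78.0 ± 11.4 TPM (SD, n = 3), of which NLaz alone held 58.4, 68.6 and 50.5 TPM, and 13 of the 17 were under 1 TPM in every library. The 13 hemocyte markers summed to 22.0 ± 4.81 TPM, the 12 neuronal markers to 9.23 ± 1.12 TPM and the 7 tracheal markers to 1.95 ± 0.699 TPM. The 21 testis markers summed to 37.3, 15.7 and 105 TPM. The 9 ejaculatory duct markers summed to 1059, 1703 and 1491 TPM, and 602, 652 and 593 TPM of this was the serine protease gene Sems, whose product also acts in the sex peptide network. The 3 ejaculatory bulb markers summed to 19.5 ± 2.70 TPM, and all but EbpIII were near or under 1 TPM. The yellow gene y, which the genotype lacks in working form, was listed at 0 in all 3 libraries. A value of 0 in every library was listed for 997 genes, so this 0 is no check of the genotype.

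Of the 14323 genes in the table, 6902, 7188 and 7257 reached 1 TPM in controls 1, 2 and 3. A total of 6811 genes, 47.6% of the table, reached 1 TPM in every library and are called detected below. Another 6839 were under 1 TPM in every library and together held 0.0895% of the TPM, and 673 crossed that level between libraries. A value of 0 was listed in all 3 libraries for 997 genes.

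The RNA of the gland was concentrated in very few genes. Mst57Db alone, a single-exon gene for a predicted peptide of 40 residues, held 11.2% ± 0.737 of all TPM (SD, n = 3). The 10 most abundant genes held 39.0%, 34.7% and 37.2% of the TPM in controls 1, 2 and 3, and the 100 most abundant held 71.1%, 67.4% and 70.3%. Ordered by mean TPM, 27 genes made up 50% of the RNA, 503 made up 90% and 4181 made up 99%. Counted within each library, 50% was reached with 23, 33 and 27 genes, so the RNA of control 2 was spread over more genes than that of the other two. Only 15 genes had a mean over 10000 TPM and they held 42.8% ± 2.15 of the total. A further 146 genes between 1000 and 10000 TPM held 36.0% ± 0.821. The 4061 genes between 1 and 10 TPM together held 1.75% ± 0.181.

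TPM counts molecules, and a short transcript gives few bases per molecule. When each transcript's TPM was multiplied by its annotated length, which approximates the share of sequenced bases, the 10 most abundant genes held 13.3% ± 1.30 of the bases and the 100 most abundant held 44.2% ± 1.83. Mst57Db, with a transcript of 195 bases, held 3.06% of the bases. It was still first by this measure, and 15 of the 20 genes highest in TPM were among the 20 highest in bases. The level of such short transcripts rests on how the quantification corrected for length, and that correction was not tested.

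**Figure D1:**
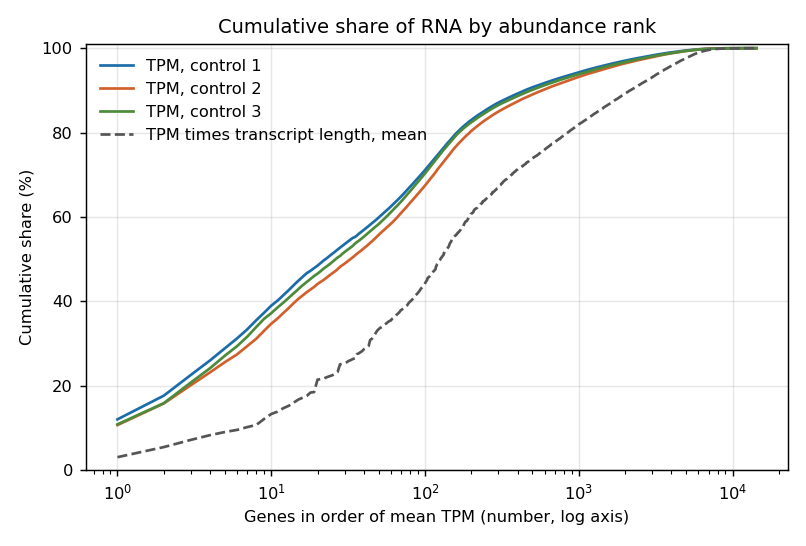
Cumulative share of the TPM (%, vertical axis) against the number of genes taken in order of mean TPM (log axis), 1 solid line per control library. The dashed line is the mean share of TPM times annotated transcript length. The 100 most abundant genes hold 71.1%, 67.4% and 70.3% of the TPM in controls 1, 2 and 3, and 44.2% of the length-weighted total.

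Of the 20 most abundant genes, 19 are protein coding, and 13 of these encode up to 100 residues. Mst57Db was at 120314, 106810 and 108462 TPM in controls 1, 2 and 3. Its neighbour Mst57Da, a gene for a peptide of 75 residues, followed at 56056, 51061 and 50124 TPM, and Mst57Dc of the same family at 8494, 7590 and 7770 TPM. The 3 Mst57D genes were first isolated as male-specific transcripts and are known accessory gland genes. The lowest library of Mst57Db lay far above the highest library of Mst57Da, so this order held in every library.

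CG43147, which carries only a CG number, took the third place at 49171, 43411 and 48963 TPM. Acp95EF, an accessory gland protein gene, the fourth place at 34473, 30399 and 34018 TPM, and CG42481 the fifth place at 28965, 24320 and 29734 TPM. These neighbours in rank did not overlap. From the sixth place the ranges ran into each other. CG42852 (23327, 18409 and 22572 TPM), SP (21720, 19785 and 22771 TPM) and Acp98AB (21372, 17300 and 22707 TPM) could not be ordered beyond their spread. All of these were lowest in control 2.

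CG9029 (17813, 18990 and 19450 TPM) was highest in control 3 and BG642312 (16577, 16355 and 13105 TPM) was lowest there. They were followed by RpL41, a ribosomal protein of 25 residues, at 11943, 12619 and 13674 TPM. Acp53Ea (12901, 13135 and 11483 TPM), Acp33A (11974, 11636 and 11403 TPM), Acp53C14a (11702, 11466 and 10380 TPM) and Acp53C14b (10468, 10114 and 9829 TPM) came next and overlapped in neighbouring pairs. The Acp53 proteins are related to each other and are transferred to the female at mating.

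CG43788 was at 9371, 8134 and 9345 TPM. Acp32CD, at 5843, 6501 and 7063 TPM, encodes a larger protein of 252 residues. The last of the 20 was CG17097, a lipase family gene of 1087 residues, at 6029, 7065 and 5518 TPM. Because its transcript is 3392 bases long, CG17097 was second by bases, with 2.94% of them. The nineteenth row of the table, 5.8SrRNA-Ψ:CR45854 at 6095, 6053 and 7190 TPM, is annotated as an rRNA pseudogene and not as a secreted product. Of the 19 neighbouring pairs among the 20 genes, 8 had ranges that did not overlap, and 18 of the 20 were among the top 20 of every library.

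**Figure D2:**
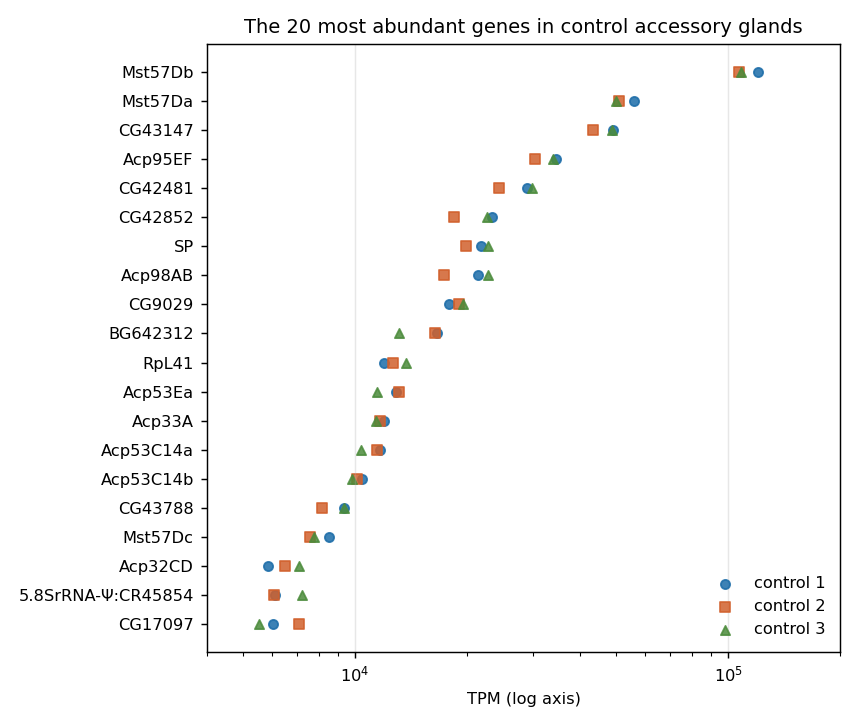
TPM (log axis) of the 20 genes of highest mean TPM, with circles, squares and triangles for controls 1, 2 and 3. Mst57Db lies between 106810 and 120314 TPM, apart from Mst57Da between 50124 and 56056 TPM, whereas the ranges of CG42852, SP and Acp98AB overlap.

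By gene class, the 63 genes taken as those of seminal fluid or accessory gland proteins, by their name or known product, held the largest share, with 39.1%, 36.3% and 36.8% of the TPM. Of these 63, 56 (88.9%) were detected, against 47.6% of all genes, and 31 had a mean over 1000 TPM. The 5 highest (Mst57Db, Mst57Da, Acp95EF, SP and Acp98AB) held 63.9% of the class. The class made up 27 of the top 100 genes. By bases its share was 19.1% ± 1.10.
Main cell products of known function were prominent in it. Acp36DE, which is needed for sperm storage, was at 4565, 5419 and 3753 TPM. Acp26Aa, the ovulin prohormone that promotes ovulation, was at 2598, 2802 and 2114 TPM, beside its neighbour Acp26Ab at 5060, 5523 and 5144 TPM. The protease inhibitor gene Acp62F was at 2447, 2489 and 2276 TPM, and the lectin gene Acp29AB at 563, 644 and 553 TPM. Acp76A, which encodes a serpin, was at 692, 694 and 448 TPM. Each of these was lowest in control 3 except Acp26Ab, which was lowest in control 1.

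The sex peptide network is a set of proteins, most of them seminal, through which SP is bound to sperm in the female. The response to mating then lasts. Of the 12 network genes examined, 9 were above 1 TPM in every library, against 47.6% of all genes. CG17575 (3134, 3346 and 3374 TPM), lectin-46Ca (2724, 3254 and 3099 TPM) and lectin-46Cb (2397, 2637 and 2706 TPM) had the highest levels after SP, and all were lowest in control 1. The protease homologue genes aqrs (907, 991 and 856 TPM) and CG9997 (674, 787 and 663 TPM), the cysteine-rich protein gene antr (749, 820 and 740 TPM) and the protease homologue gene intr (200, 234 and 207 TPM) were highest in control 2. The 3 genes hdly, Esp and frma, which are known as the part of the network that acts in the female, were under 1 TPM in every library. Of these, hdly was nevertheless counted among the 63 genes of the seminal class.

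The 93 genes of cytoplasmic ribosomal proteins held 17.5%, 18.0% and 19.1% of the TPM and filled 47 of the top 100 places. A total of 85 of them (91.4%) were detected, against 47.6% of all genes, and 78 had a mean over 1000 TPM. RpL41 alone held 7.01% of the class. It was followed by RpS23 (4882, 4573 and 5419 TPM), RpL39 (4289, 3830 and 5035 TPM) and RpS25 (3374, 3511 and 3741 TPM). Of the 85, 62 were highest in control 3 and 61 lowest in control 1. After scaling of the libraries by the median of their ratios, 61 were highest in control 3 and 83 lowest in control 2. Before scaling, their median coefficient of variation (CV) was 5.01%. The 8 that were under 10 TPM were all close to or under 1 TPM, and they are paralogs such as RpL22-like, RpS5b, RpS19b, RpS10a and RpL37b, several of which are known from the germ line. Those that were detected thus lay far above those that were not, with RpS15Ab, at 25.7, 28.9 and 29.3 TPM, the lowest detected member.

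Ribosomal proteins of the mitochondrion behaved otherwise. All 73 of their genes were detected, against 47.6% of all genes. Their median was only 11.5 TPM, against 1973 TPM for the detected cytoplasmic genes. The highest, mRpS14, was at 40.7, 39.9 and 43.6 TPM. Nuclear genes for oxidative phosphorylation subunits held 0.643% ± 0.0172 of the TPM, led by ATPsynC (362, 410 and 397 TPM), ND-MLRQ (218, 231 and 224 TPM) and COX4 (221, 224 and 211 TPM). The 13 mitochondrially encoded RNAs held 0.399% ± 0.0514. Mitochondrial RNAs have short poly-A tails, and how the poly-A selection bears on this share was not tested. Among them mt:CoIII was highest, at 1216, 1490 and 1154 TPM.

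Genes with only a CG number held the second largest share, with 25.9%, 25.7% and 26.3% of the TPM. The table holds 6283 such genes, of which 2351 (37.4%) were detected, against 47.6% of all genes. Yet the 6 highest (CG43147, CG42481, CG42852, CG9029, CG43788 and CG17097) held 50.1% of the class and the 19 in the top 100 held 66.3%. These 19 encode proteins of 30 to 1087 residues with a median of 110, against 341 for all detected CG genes, and 9 of the 19 have up to 100 residues. The 19 include CG44388 (6031, 4868 and 6353 TPM), whose predicted peptide has 30 residues, CG43392 (4964, 4711 and 5410 TPM), CG43319 (4270, 3862 and 4377 TPM) and the lipase family genes CG31872 (3048, 3493 and 2680 TPM) and CG18284 (2866, 3261 and 2604 TPM). The class holds the genes with a CG number in the table that are in no other class, whatever their function, and 204 of its genes carry another name in the later annotation used for coordinates.

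The machinery that makes and exports protein was expressed as a whole. All 30 endoplasmic reticulum (ER) chaperone and folding genes and 68 of the 69 genes of the secretory pathway were detected. Of all genes, 47.6% were. ER chaperones held 1.01%, 1.09% and 0.907% of the TPM and 2.75% ± 0.186 of the bases. The calcium-binding chaperone gene Calr was at 1922, 2066 and 1792 TPM, the disulphide isomerase gene Pdi at 1877, 2081 and 1750 TPM, the BiP homologue Hsc70-3 at 848, 889 and 697 TPM and ERp60 at 737, 772 and 648 TPM. All were highest in control 2 and lowest in control 3. The secretory pathway held 1.15% ± 0.0735 of the TPM, with the p24 family cargo receptor gene bai (762, 791 and 717 TPM) and the signal peptidase genes Spase22-23 (678, 729 and 706 TPM), twr (709, 728 and 670 TPM) and Spase25 (562, 605 and 552 TPM) at its head. Translation factors held 1.10%, 1.29% and 1.14%, led by eEF1α1 (3244, 3934 and 3307 TPM), eEF5 (1313, 1575 and 1406 TPM), eEF2 (1188, 1374 and 1268 TPM) and eIF4A (757, 869 and 764 TPM).

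Secreted protein families outside the seminal class were unequal within themselves. Of 27 serpin genes, which encode inhibitors of serine proteases, 16 (59.3%) were detected, against 47.6% of all genes. Spn38F led with 2919, 3202 and 2609 TPM, followed by Spn28F (1735, 1513 and 1029 TPM), Spn75F (615, 734 and 617 TPM) and Spn42Dd (446, 486 and 447 TPM). Of 51 odorant-binding protein genes, whose small products carry hydrophobic ligands, 10 (19.6%) were detected. Obp22a (1414, 1635 and 1457 TPM) and Obp56f (1235, 1474 and 1172 TPM) held most of the class, Obp51a was at 76.5, 205 and 190 TPM, and Obp56i was at 155, 153 and 158 TPM. Apart from the lectins counted with the seminal proteins, lectin-21Ca (163, 203 and 153 TPM) and lectin-21Cb (99.8, 115 and 91.0 TPM) were the only 2 of 9 C-type lectin genes detected.

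Housekeeping classes were small. The cytoskeleton of most cells held 0.202% ± 0.0212, with 14-3-3ζ (314, 402 and 357 TPM) and Act5C (199, 234 and 189 TPM) highest. Antioxidant and glutathione enzymes held 0.158% ± 0.00789, with Trx-2 at 356, 376 and 380 TPM and GstD1 at 228, 252 and 220 TPM. The proteasome held 0.141%, 0.157% and 0.138%, with Prosα1R at 105, 116 and 104 TPM and Prosβ5 at 81.5, 94.5 and 82.3 TPM. Glycolytic enzymes held 0.0773% ± 0.00745, with the aldolase gene Ald1 at 171, 206 and 180 TPM and Eno at 94.0, 111 and 98.0 TPM. The vacuolar ATPase, the proton pump of acidic organelles, held 0.0952% ± 0.00847, and Vha13, at 259, 280 and 288 TPM, stood above the next subunit gene Vha16-1 (93.7, 123 and 102 TPM). Muscle contractile genes held 0.0914% ± 0.00892, with Chd64, Act57B, Tm1 and Mlp60A highest, Chd64 at 153, 178 and 166 TPM.

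Heat shock protein genes held 0.104% ± 0.00554, mostly the constitutive Hsc70-4 (557, 621 and 552 TPM) and Hsp83 (276, 247 and 241 TPM). Pseudogenes of rRNA held 1.06%, 1.39% and 1.22%, led by 28SrRNA-Ψ:CR45851 (1279, 2235 and 1562 TPM) after 5.8SrRNA-Ψ:CR45854. They share sequence with the rRNA genes and each other, so how this RNA was divided among them is uncertain. All remaining genes, 6949 in number, held 10.8% ± 0.834 of the TPM and 24.6% ± 1.10 of the bases. At their head were BG642312, BG642167 (3643, 3417 and 3782 TPM) and Met75Cb (1851, 4016 and 4733 TPM), which are outside the seminal class. The share of that class is the share of the genes chosen for it, not of all secreted products.

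**Figure D3:**
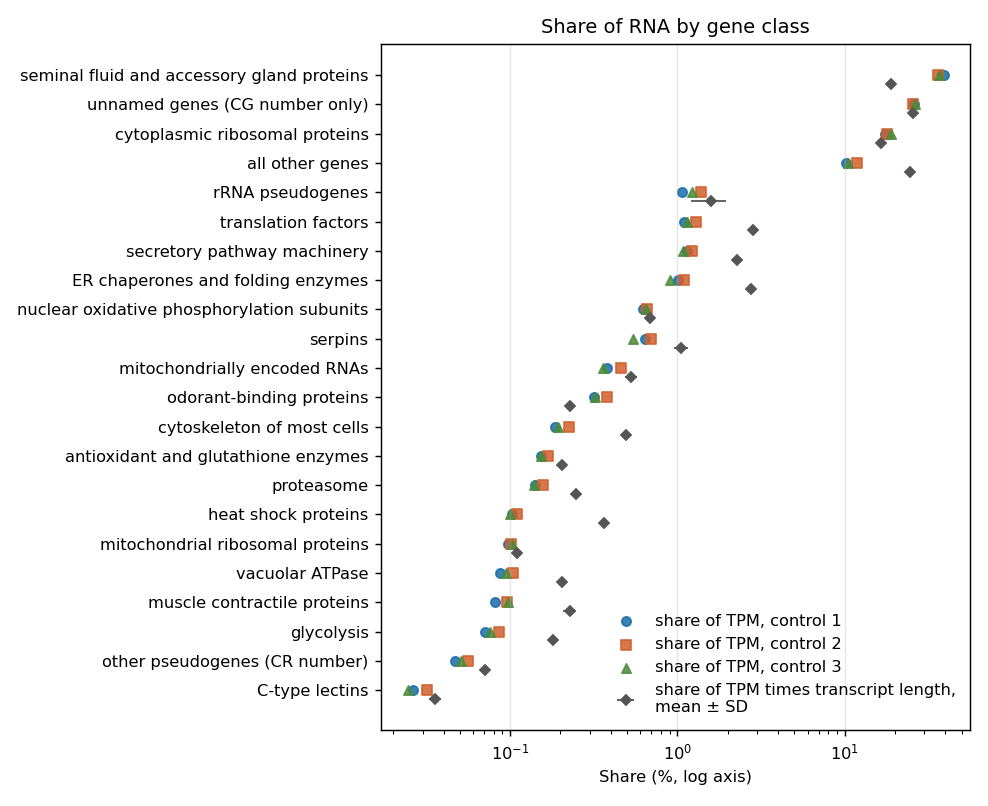
Share (%, log axis) of the TPM by gene class, with circles, squares and triangles for controls 1, 2 and 3, and grey diamonds for the share of TPM times transcript length (mean ± SD, n = 3). Seminal fluid and accessory gland proteins hold 36.3% to 39.1% of the TPM and 19.1% of the length-weighted total, whereas ER chaperones hold 0.907% to 1.09% of the TPM and 2.75% of that total.

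The abundant genes were short and had few introns. Of the top 100, 99 are protein coding in their main transcript, with a median of 131 residues and 2 exons, against 421 residues and 4 exons for the other 6667 detected coding genes. Proteins of up to 100 residues made up 32.3% of the top 100 and 4.59% of the other detected genes. In the top 20 the median was 62 residues. With the ribosomal proteins left out, the median of the top 100 was 108 residues. The 875 genes of the table whose main transcript encodes up to 100 residues held 50.2% ± 2.34 of the TPM and 19.7% ± 1.65 of the bases.

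Abundant genes were also found side by side. Of the top 100, 20 lay in 7 runs of genes with gaps of up to 5 kb, and these runs held 36.1% of the TPM. Among the next 9 sets of 100 genes by rank, between 2 and 16 genes lay in such runs. Coordinates are those of the BDGP6 (dm6) assembly. The Mst57D genes and Sfp96F lie at 3R:25829321-25831899, a stretch of 2579 bases that held 19.1%, 17.1% and 17.2% of the TPM. Mst57Db occupies 3R:25830720-25830914 on the minus strand as 1 exon, and Mst57Da 3R:25831575-25831899. Sfp70A4, CG42481, CG43147 and SP lie at 3L:13296530-13301922 and held 10.3%, 8.97% and 10.4%. Acp53C14a, Acp53C14b and Acp53Ea lie at 2R:16747834-16750335 and held 3.38% ± 0.186. CG43319 and Acp98AB lie at 3R:27694318-27695057 and held 2.46% ± 0.309. The lipase family genes CG31872, CG18284 and CG17097 lie at 2L:10639931-10650152 and held 1.22% ± 0.152. The remaining runs were Acp26Ab with Acp26Aa and lectin-46Cb with lectin-46Ca.

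Chromosome 3 contributed most of the RNA, with 33.6% ± 0.996 of the TPM from 3R and 23.0% ± 0.589 from 3L, against 18.8% ± 0.751 from 2L and 17.1% ± 0.311 from 2R. The X chromosome gave 6.51% ± 0.353 of the TPM, although 16.3% of the detected genes lie on it, and 7 of the top 100. With the top 100 genes left out, the share of the X in the remaining TPM was 14.4%. That of 3R was then 22.8% and that of 3L 16.5%, against 24.1% for 2L and 19.8% for 2R. None of the 85 Y genes was detected, against 47.6% of all genes.

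Of the top 20 genes, 13 have 1 annotated transcript, and of the top 100, 38 do. Over the 1913 genes with a mean of at least 10 TPM and more than 1 annotated transcript, the main transcript held a median of 84.3% of the gene's TPM, and in 799 genes (41.8%) it held at least 90%. In 649 genes it held less than 70%. The most abundant of these was CG43147, whose main transcript held 66.7%, 66.5% and 66.7% of the TPM. Its 2 transcripts, of 256 and 260 bases, encode 44 residues each. Acp26Ab was divided over 3 transcripts, the main one with 60.7%, 60.1% and 61.8%, and Sfp26Ad over 2, the main one with 65.8%, 65.2% and 64.9%. The ribosomal genes RpL35 (67.7%, 69.0% and 66.3%) and RpL36 (63.7%, 60.2% and 63.3%) were divided as well. In each of these 5 genes, the transcripts with the most RNA encode proteins of the same length. The division among transcripts was steady between libraries in these genes. At the level of 1 TPM and above, 200 transcripts in 97 genes had the same value as another transcript of their gene in every library, and the quantification could not tell these apart.

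Regulators of the gland were expressed at levels far below its products. Xbp1, the transcription factor of the ER stress and secretory response, was the highest of the 58 regulators examined, at 248, 295 and 270 TPM. The paired gene prd, which is needed for accessory gland development and for the expression of seminal genes, was at 119, 136 and 120 TPM. CrebA, which drives genes of the secretory pathway, was at 37.4, 47.1 and 39.6 TPM. All were highest in control 2. In total, 41 of the 58 were above 1 TPM in every library and 14 (24.1%) were below it in every library, against 47.7% of all genes. The median over the list was 3.06 TPM. The Pax family gene toe, which is not on the list and was picked out after its level was seen, was at 186, 272 and 281 TPM.

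Among growth regulators, Myc was at 15.2, 21.7 and 20.7 TPM, the Hippo pathway effector yki at 14.2, 16.5 and 14.7 TPM, its DNA-binding partner sd at 11.8, 16.3 and 13.4 TPM and foxo at 14.2, 21.2 and 19.5 TPM. Each was lowest in control 1. Of the hormone signalling genes, the ecdysone receptor gene EcR was at 1.67, 2.48 and 2.10 TPM and its partner usp at 13.3, 15.7 and 12.6 TPM. The juvenile hormone receptor genes gce (3.71, 5.37 and 5.31 TPM) and Met (1.40, 1.73 and 1.39 TPM) were both present. The BMP receptor gene tkv was at 6.94, 9.14 and 7.98 TPM and the BMP target Dad at 2.01, 2.17 and 1.94 TPM. The epidermal growth factor receptor gene Egfr was at 2.30, 3.11 and 2.40 TPM and the insulin receptor gene InR at 0.499, 0.848 and 0.805 TPM. Of the sex determination genes, dsx was at 2.80, 3.88 and 2.91 TPM and the neural regulator fru at 0.165, 0.263 and 0.272 TPM.

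Among genes of the secondary cells, Abd-B, the Hox gene that shapes these cells, was at 0.981, 2.35 and 1.48 TPM and dve, which is also active in main cells, at 10.8, 13.6 and 11.9 TPM. Rab19, a vesicle marker of secondary cells, was at 24.5, 29.5 and 29.5 TPM. Lim3, another transcription factor gene of these cells, was at 0.0350, 0.00620 and 0.0164 TPM.

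A gene was taken as silent when it was under 1 TPM in every control library, as 47.7% of all genes in the table were. The 18 lists examined for silence hold 826 genes, of which 689 (83.4%) were silent, and 157 were listed at 0 in all 3 libraries. Together the 826 genes held 0.253% of the TPM. The lists were read against the 47.7% of all genes, with no test.

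Genes for structures made elsewhere were almost wholly silent. All 20 chorion, vitelline and yolk protein genes were silent, with a sum of 0.468 ± 0.0796 TPM. So were 123 of 126 cuticle protein genes, with Cpr23B, at 8.24, 11.5 and 7.23 TPM, as the only member above 1 TPM in every library. Among chemoreceptors, 58 of 60 gustatory, 62 of 66 ionotropic and 57 of 61 olfactory receptor genes were silent. In the gustatory list Gr59d was highest, at 2.99, 4.14 and 3.42 TPM, and in the ionotropic list Ir62a, at 2.41, 3.43 and 2.46 TPM. Of 28 neuronal genes 21 were silent, and VGlut, VAChT and ChAT, which mark the output of neurons, were among these. Fas2, a cell adhesion gene, was the highest of the list at 7.22, 9.45 and 8.50 TPM. Of 16 phototransduction genes 13 were silent, with chp highest at 10.5, 12.8 and 10.4 TPM.

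Among developmental regulators, 6 of 8 Hox genes were silent. Those with signal were abd-A (2.32, 3.48 and 3.47 TPM) and Abd-B, the Hox genes of the posterior abdomen. Of 24 segmentation and head patterning genes 21 were silent, and the exceptions were h (14.4, 20.6 and 15.5 TPM), the stress response regulator cnc (10.0, 13.9 and 11.4 TPM) and opa, which crossed 1 TPM. Of 44 genes for secreted ligands, 31 were silent. The TGF-β family ligand genes mav (69.6, 77.0 and 71.4 TPM), gbb (39.6, 45.8 and 40.8 TPM) and myo (9.71, 14.3 and 11.1 TPM) were not, nor was Pvf1, a ligand of the PDGF and VEGF type, at 36.4, 49.0 and 47.0 TPM.

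The proliferation lists differed from each other. Of 48 mitosis genes, 35 (72.9%) were silent, including the centromere histone gene cid and the kinesin gene Klp61F, and the highest were Top2 (9.74, 12.4 and 11.5 TPM) and fzr, which promotes the exit from mitosis and the endocycle, at 8.15, 11.2 and 9.05 TPM. Of 45 replication genes only 20 (44.4%) were silent, a share near that of all genes. Dp (19.0, 24.5 and 23.4 TPM), geminin (16.2, 19.1 and 19.5 TPM) and E2f1 (16.6, 21.2 and 16.5 TPM) were the highest. The loading factor gene Orc2, the helicase genes Mcm2, Mcm5 and Mcm7, the clamp gene PCNA and the polymerase genes PolA1 and PolE1 were silent. The 22 genes above 1 TPM in every library included Mcm6 (2.47, 2.99 and 2.79 TPM) and Cdc45 (3.06, 3.66 and 3.32 TPM). At a threshold of 5 TPM, 34 of the 45 replication genes would count as silent, but so would 9517 of all 14323 genes.

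Of 117 histone genes, 111 were silent. The 4 above 10 TPM were the replication-independent genes His4r (515, 565 and 589 TPM), His3.3B (131, 161 and 145 TPM), His3.3A (57.1, 65.7 and 65.7 TPM) and His2Av (49.9, 57.8 and 58.3 TPM). The replication-dependent histone genes form near-identical repeats and their messages lack a poly-A tail, and in libraries selected for poly-A their silence is no measure of the genes' activity.

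The germline lists were unlike each other. Of 30 germline stem cell and piRNA genes 23 (76.7%) were silent, with tud highest at 11.5, 14.5 and 12.7 TPM. Of 46 genes of spermatocytes and spermatids only 21 (45.7%) were silent, and the list summed to 59.5, 30.7 and 173 TPM. Of the 46, 37 were highest in control 3 and 37 were lowest in control 2. Without control 3, 27 of the 46 counted as silent. The sperm tail protein gene Mst84Da, for example, was at 5.88, 1.46 and 17.3 TPM, and the leucyl aminopeptidase gene S-Lap1 of the sperm at 3.04, 0.968 and 13.1 TPM. The testis markers moved in the same way, but that list overlaps with this one, so its pattern is not independent. The part of testis RNA in these values was not tested.

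Immune and gut genes were silent for the most part. Of 35 antimicrobial peptide genes 28 were silent, and CecA1 was the highest of the list at 5.94, 14.5 and 14.5 TPM. The antibacterial peptide gene Anp is not in the list, and its values stand with the genes of the duct. Of 44 digestive enzyme genes 38 were silent. The lysozyme genes LysD (524, 563 and 547 TPM), LysE (202, 202 and 199 TPM) and LysB (85.5, 76.7 and 79.4 TPM) held nearly all of this list's sum of 835 ± 14.5 TPM. They are close copies of each other on 3L, so the division among them is uncertain. Of 13 inducible heat shock genes, only 6 (46.2%) were silent, but most of the others were near 1 TPM. Hsp70Bb, at 36.6, 67.4 and 36.2 TPM, was the exception, and the next, Hsp27, was at 2.85, 2.08 and 1.74 TPM.

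**Figure D4:**
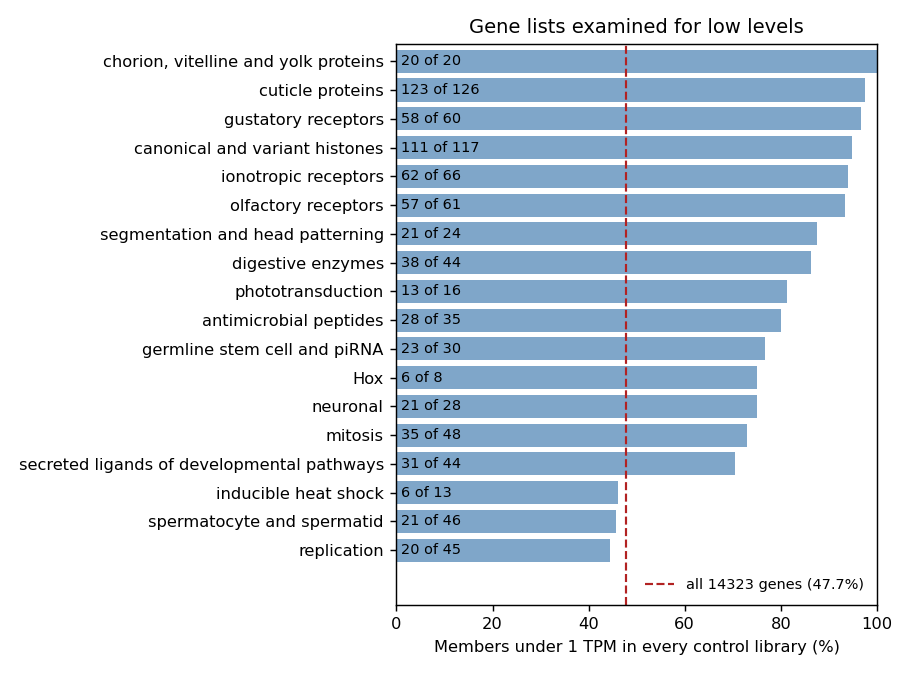
Percent of the members of each list that were under 1 TPM in every control library, with the counts written in the bars. The dashed line marks the 47.7% of all 14323 genes, and the replication, spermatocyte and spermatid, and inducible heat shock lists lie near it, at 44.4%, 45.7% and 46.2%.

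The 3 control libraries were alike across genes. Over the 7112 genes with a mean of at least 1 TPM, Pearson's r of log2(TPM + 1) was 0.994 for controls 1 and 2, 0.994 for controls 1 and 3, and 0.989 for controls 2 and 3. This r is across genes, which are not independent replicates. The median standard deviation (SD) of log2(TPM + 1) was 0.14, and the median CV was 11.6%. Spread narrowed with abundance, from a median CV of 13.2% between 1 and 10 TPM to 10.2% up to 100 TPM, 8.32% up to 1000 TPM and 6.08% above that. Part of it was a shift shared by most genes. Over genes of at least 10 TPM, the median deviation from the gene's mean was -0.08 in control 1, 0.12 in control 2 and -0.03 in control 3 on the log2 scale. How many of all genes were highest or lowest in each library was not counted, so such counts for a list have no background. TPM of all genes sum to the same total, and the top 10 genes held the least RNA in control 2. Scaling the libraries by the median of their ratios lowered the median SD to 0.08, and leaving out control 2 gave 0.08 as well.

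The steadiest genes of at least 100 TPM were ssp7 (1186, 1181 and 1178 TPM), the cytochrome oxidase subunit gene COX8 (149, 148 and 149 TPM), CG8860 (115, 114 and 115 TPM), CG45012 (115, 115 and 116 TPM) and Neb-cGP (185, 183 and 182 TPM). As these were picked for their small SD, the values describe the choice.

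The least steady genes of at least 10 TPM were led by CG18628, at 207, 1491 and 247 TPM. It was followed by Est-6 (34.6, 153 and 87.4 TPM), the carboxylesterase of the ejaculatory duct, Obp56g (54.2, 99.5 and 22.3 TPM), CG42782 (10.1, 12.6 and 41.3 TPM) and the serpin gene Spn77Bc (37.6, 149 and 100 TPM). The SD of these 5 on the log2 scale lay between 1.01 and 1.57. Altogether 34 of 3051 genes had an SD over 0.5, and 28 of them were highest in control 2 and 23 lowest in control 1. After scaling, 27 of these 34 genes were still over 0.5, of which 17 were highest in control 2, 9 in control 3 and 23 lowest in control 1.

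Some ejaculatory duct markers were among these genes. Dup99B, a duct peptide related to SP, was at 273, 560 and 558 TPM, CG17242 at 28.9, 91.0 and 89.4 TPM, CG5162 at 28.6, 104 and 72.7 TPM and CG18258 at 10.0, 40.3 and 20.6 TPM. The oxidoreductase gene Gld, a duct marker with a mean under 10 TPM, was at 1.94, 11.2 and 5.05 TPM. Of the 9 duct markers, 7 were lowest in control 1, all 9 were highest in control 2, and 6 had an SD over 0.5. That is also the direction of the shift shared by most genes, and the same counts over all genes were not made. After scaling, 7 duct markers were still lowest in control 1, and 5 were highest in control 2. The list's sum was then 1147, 1535 and 1520 TPM. The andropin gene Anp, an antibacterial peptide gene of the duct that was added after its values were seen, was at 166, 470 and 397 TPM. How much duct tissue each pool held is not given by the labels, and its part in these values was not tested. The CV of the 9 duct markers had a median of 50.7% and a range of 5.15% to 77.5%. Over the 12 main cell markers the median was 7.35% and the range 4.69% to 23.2%, with SP at 7.07% and Acp95EF at 6.77%. Both lists were chosen with earlier results of these data known. They differed in level, with a median of 69.8 TPM for duct and 4910 TPM for main cell markers. Over all genes, the median CV was 10.2% between 10 and 100 TPM and 6.08% from 1000 TPM. The part of level in the difference between the lists was not tested.

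A second set of unsteady genes was of low abundance. Of the 4061 genes between 1 and 10 TPM, 145 had an SD over 0.5, and 96 of these were highest in control 3 and 89 lowest in control 2. Sperm and testis genes such as Mst84Da, S-Lap1 and loopin-1 (2.08, 0.736 and 10.7 TPM) were among them. Of the 19 testis markers with any signal, 14 were highest in control 3 and 16 lowest in control 2, and both counts were the same after scaling. Of the 16 muscle markers, 15 were lowest in control 1 and 12 highest in control 3. After scaling, 10 of the 16 were lowest in control 2, 6 in control 1, and 15 were highest in control 3. Over the 56 detected members of the seminal class, the median CV was 7.44%.

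**Figure D5:**
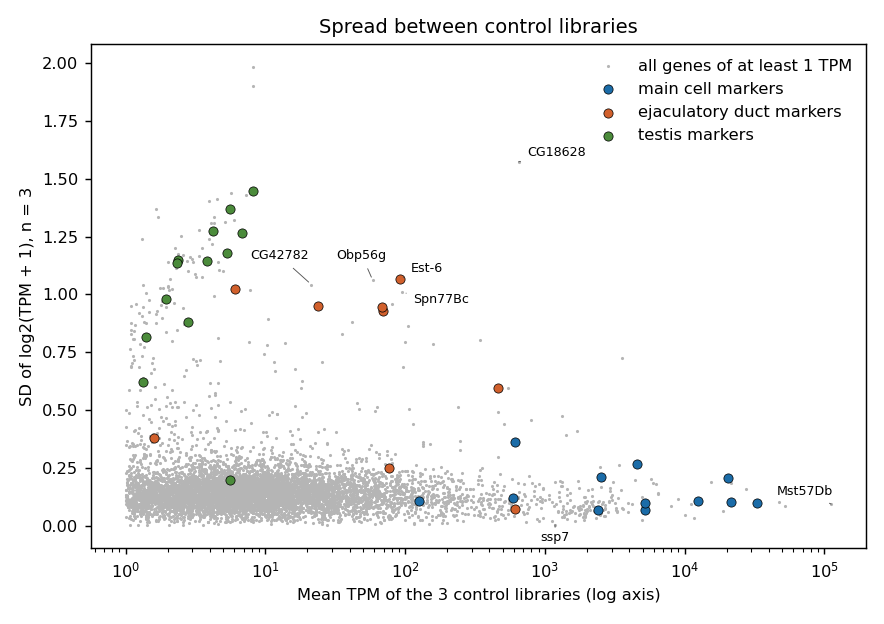
SD of log2(TPM + 1) over the 3 control libraries against the mean TPM (log axis) for 7112 genes, with markers of main cells in blue, of the ejaculatory duct in orange and of the testis in green. CG18628 stands highest among genes of at least 10 TPM with an SD of 1.57, and Est-6 follows with 1.07, whereas Mst57Db has an SD of 0.09.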

How the data were processed

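The authors selected poly-A RNA, prepared stranded libraries, and deposited TPM per transcript and per gene, made with kallisto on Ensembl BDGP6.28. The submitters' processing notes also name cutadapt 1.18, sleuth and the build BDGP6. The kallisto version is not given in the sources used here. Gene TPM equal the sum of transcript TPM. TPM keep no depth, so no counting interval was possible. Of the 12 columns only the 3 controls were used, and the other 9 were not analysed here. With 1 group there was no test: values are given per library, or as mean ± SD. Transcript length, exons, coding length and coordinates came from Ensembl 115 (BDGP6.54 annotation), which held 31048 of the 31089 transcripts. The transcripts not found there held 0.0204% of TPM. Each gene counts in 1 class only. Named are the 20 genes of highest mean TPM, up to 4 leading genes per list with defining members, 5 genes at each end of the spread, and the 5 most abundant genes whose main transcript holds less than 70%. Genes named outside this rule were chosen after their values were seen. The classes, lists and genes were chosen with earlier results of these data known. The symbols of the lists were corrected, and the pseudogene classes added, after the table was seen. Detection was tried at 0.5 and 5 TPM, and other pseudocounts, filters, scalings, lengths and sets of libraries were tried. The SD of log2(TPM + 1) was tested on simulated data, and the shares and runs on small made-up examples. The other statistics were not tested in this way. Python 3.11.15, pandas 2.3.3 and numpy 2.4.6 were used.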

Additional observations from a re-analysis of the deposited data

How the results depend on the processing

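Depth is unknown, and 3 libraries of 1 group limit every SD given. Of 249 alternative values over 49 results, 221 stayed within the replicate SD, or within 1.5 times for counts and medians. Leaving out a library gave 147 of the 249, of which 1 moved. For a class share, leaving out 1 of 3 libraries cannot move the mean by its SD, so those values are no check. Genes detected fell to 4222 at a threshold of 5 TPM. Weighting TPM by transcript length changed 21 of the 22 class shares. Seminal and accessory gland proteins fell to 19.1% and cytoplasmic ribosomal proteins to 16.5%, whereas translation factors came to 2.84%, ER chaperones to 2.75%, the secretory pathway to 2.27%, rRNA pseudogenes to 1.58% and all other genes to 24.6%. The share of genes with a transcript of at least 90% was 52.2% from a mean of 50 TPM. The median SD was 0.0827 after median-of-ratios scaling, and between 0.0810 and 0.160 on leaving out each replicate. With ribosomal protein genes left out, an alternative chosen after seeing the data, 37.7% of the remaining top 100 genes lay in runs, against 20% of all 100. At 5 TPM, 34 of 45 replication genes and 12 of 13 inducible heat shock genes counted as silent. The same held for 9517 of all 14323 genes. The causes were not tested, except where weighting by length is the cause by construction. No paired analysis was possible because only 1 group was described and no test was run.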

Other observations

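Some genes outside the expected repertoire of the gland stood out among those near them. The olfactory receptor genes Or59b (49.1, 67.0 and 54.7 TPM) and Or59c (mean 57.5 TPM), which encode odour receptors of antennal and palp neurons, lie next to each other at 2R:23470165-23473753, and both were highest in control 2. Or59a, another member of the cluster at 2R:23439868-23441065, had a mean of 5.93 TPM, and 57 of the 61 olfactory receptor genes were under 1 TPM in every library.

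Met75Cb and Met75Ca, a pair of male-expressed paralogs on 3L, differed in both level and pattern. Met75Cb was at 1851, 4016 and 4733 TPM and Met75Ca at 9.66, 14.7 and 0.226 TPM, so the library with the most Met75Cb had the least Met75Ca. How reads were divided between the paralogs is uncertain. The eye colour gene w, which the genotype carries in mutant form, was at 7.23, 10.8 and 7.77 TPM. Whether this RNA came from the mutant locus or from the transgenes was not tested. CG10407 was at 1.08, 21.7 and 1.63 TPM, and CG14245 (0.139, 4.71 and 0.0655 TPM) and CG14292 (0.167, 4.79 and 0.173 TPM) were high in the same library, control 2. The pseudogenes CR43087 (239, 271 and 251 TPM) and CR43086 (mean 62.2 TPM) on 3L held most of the TPM of pseudogenes other than those of rRNA. Among genes of at least 1 TPM, 76 had the same value as another gene in all 3 libraries, so the table cannot tell the members of such pairs apart.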
